A study of Mus musculus with 7 samples.

Results

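Conditioned medium was compared with fresh differentiation medium after 4 h, in mouse 3T3-L1 cells, a fibroblast line of embryonic origin that can be induced with hormones to become fat cells. The members of the comparison are the protein-coding genes with an FPKM (a fragment count scaled to transcript length and to library size) of 5 or more in at least 1 of the 2 libraries, which are 8015 of the 23996 genes in the tables. Of these, 7478 reached that level in both libraries. Cells of the library 4h MDI, called fresh MDI here, had been given a mix of IBMX, dexamethasone and insulin. Cells of 4h CM, the conditioned medium, had been given MDI medium collected from 3T3-L1 cultures after 48 h of differentiation. Both media therefore began as MDI, and no library without inducers was made at 4 h. The other libraries are a 0h control of confluent cells before differentiation, 24h MDI and 24h CM, and Pro MDI and Pro CM from preconfluent cells, for which no time is given. The study asked how conditioned medium and MDI differ in their effect on 3T3-L1 differentiation.

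Each condition has 1 library, so no spread between cultures can be had, no test was made, and every difference is a description of the libraries named. Differences are 4h CM minus 4h MDI on the scale log2(FPKM + 1), on which 1 is 2-fold, and this scale understates the change of weakly expressed genes. A gene is called lower or higher where the difference reaches 1 in size. Depth is unknown, since FPKM carry no read totals. Over 2288 weak genes with a value in both libraries, the most common ratio of 4h CM to 4h MDI was 1.05. Genes that do not change would also give a ratio near 1, so it does not settle the depth. FPKM summed to 714427 in fresh MDI and 681510 in conditioned medium, against a range of 558532 to 714427 over the 7 libraries. The samples are labelled as adipocytes, and the markers of that cell type do not bear this out at 4 h. Of 12 adipocyte markers, 9 had an FPKM under 1 in both libraries, and Cfd and Lep were listed at 0 in both. Summed adipocyte markers reached an FPKM of 42.8 in fresh MDI and 57.3 in conditioned medium, with Fabp4 the highest at 33.6 and 35.3. The 10 markers of preadipocytes and stroma summed to 4865 and 4970. Abundant genes carry that sum, with Col1a1, Col3a1, Dlk1 and Col6a3 the highest, while Pdgfrb was at 18.3 and 8.05 and Cd34 at 0.829 and 1.54. Markers of endothelium and epithelium summed to under 1 in both libraries, and those of leukocytes to 9.49 and 5.28, with Ptprc, Emr1, Tyrobp and Cd3e at 0. Those of skeletal muscle summed to 13.1 and 10.3, and those of bone and cartilage, mostly Spp1, to 114 and 107.

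IBMX blocks phosphodiesterases and so raises cAMP, dexamethasone activates the glucocorticoid receptor, and insulin acts through its own receptor and that of IGF-1. Together they start a cascade in which Cebpb and Cebpd act early and Pparg and Cebpa later, and in which the fibroblast loses its actin stress fibres and takes a round shape. TGF-beta acts against this process. Serum and growth factors drive immediate early genes, and the assembly of actin filaments frees the cofactor MRTF to act with the transcription factor SRF, which binds CArG boxes in the promoters of cytoskeletal genes.

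The difference between the media lay mostly in genes with less mRNA in conditioned medium. Of the 8015 members, 263 were at least 2-fold lower in 4h CM (3.28%) and 80 were at least 2-fold higher (0.998%). Past 4-fold there were 50 lower genes and 2 higher, and past 8-fold 5 lower and 0 higher. The bulk of the transcriptome differed little, with a median of 0.0035, quartiles of -0.22 and 0.20, and 6973 members (87.0%) within 1.5-fold. In bulk RNA, fewer cells that express a gene and less of its mRNA per cell cannot be told apart. Members just inside the FPKM limit, at 5 to 5.5, numbered 200, with 5 called lower and 5 higher, and the 194 genes just outside it, at 4.5 to 5, held 3 and 1.

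**Figure D1:**
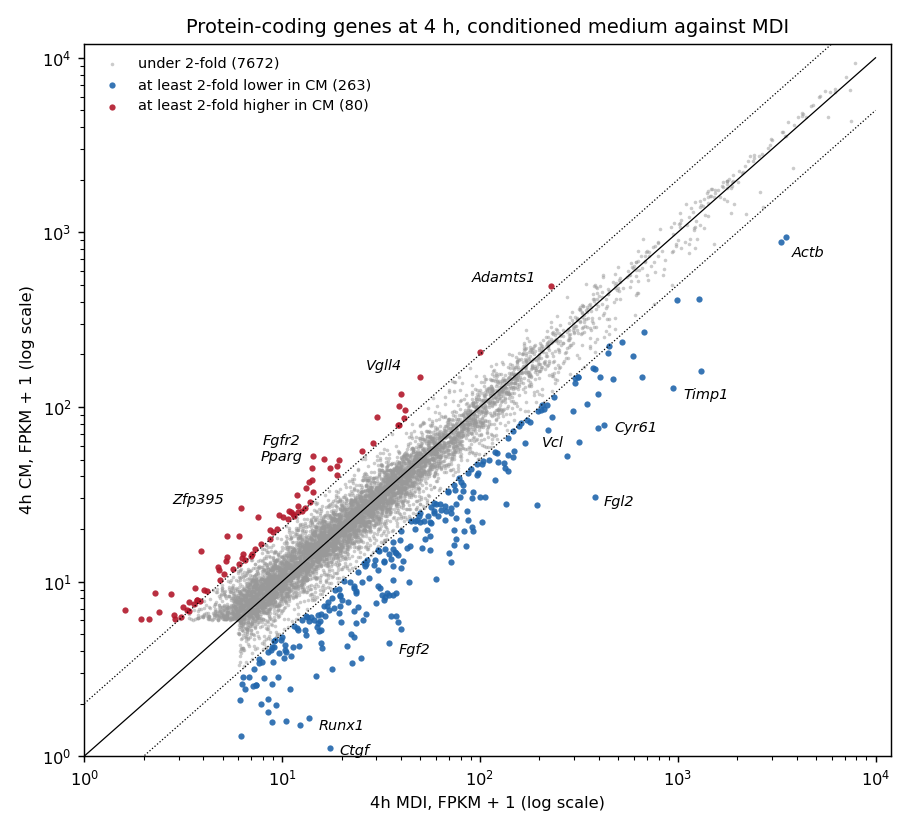
Each point is a protein-coding gene, with FPKM + 1 in 4h MDI on the horizontal and in 4h CM on the vertical axis, both on log scales. The solid line marks equal levels and the dotted lines 2-fold. The 263 genes below the lower line are spread over the whole range of levels and include Actb and Timp1 toward the top of it, while the 80 above the upper line mostly lie at low and middle levels.

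The level of the called genes at 0h is given here beside their levels at 4 h, which had chosen them. The 263 lower genes had a median FPKM of 10.3 at 0h, 36.6 in fresh MDI and 12.4 in conditioned medium. The 80 higher genes had a median FPKM of 17.5 at 0h, 7.24 in fresh MDI and 18.4 in conditioned medium. Over all members the medians were 18.1, 20.5 and 20.1. At 0h the lower genes thus had a lower median than all members, and the higher genes one close to it. Since 4h values chose both sets, their order at 4 h is no result, and 194 of the 263 lower and 51 of the 80 higher genes reached an FPKM of 5 in both libraries. The 0h library is 1 library and was harvested at another time.

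At the low end stood Ctgf, which encodes a matricellular growth factor, with an FPKM of 16.5 in fresh MDI and 0.118 in conditioned medium (chr10:24595442-24598682, as given in the authors' tables). Its FPKM was 0.219 at 0h, and the difference of -3.97 was the lowest of all members. Fgl2, a fibrinogen-like secreted protein, had an FPKM of 379 in fresh MDI and 29.3 in conditioned medium, a difference of -3.65, against 0.392 at 0h and under 1 in both 24h libraries. Its level in fresh MDI was the highest of the 7 libraries. Runx1, a Runt-domain transcription factor, had an FPKM of 12.7 in fresh MDI and 0.658 in conditioned medium, a difference of -3.05, against 1.48 at 0h. These 3 genes were all above their 0h level in fresh MDI, whereas in conditioned medium Ctgf and Runx1 were below it and Fgl2 still above it.

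Other genes at the low end had different roles. Nipal1, a magnesium transporter, went from an FPKM of 11.3 to 0.514, and Fgf2, a fibroblast growth factor, from 33.9 to 3.44. Ereg, an EGF receptor ligand, had an FPKM of 38.9 in fresh MDI and 4.33 in conditioned medium. Timp1, an inhibitor of metalloproteinases, had an FPKM of 941 in fresh MDI and 128 in conditioned medium, a difference of -2.87. Tnfrsf12a, the receptor for the cytokine TWEAK, was at 194 in fresh MDI and 26.4 in conditioned medium, the latter next to its 26.5 at 0h. Akap12, a scaffold for protein kinase A, stood out from these, since its 4h MDI level of 24.1 was itself below the 36.5 at 0h, and 4h CM was at 2.64. Tfpi2 (a Kunitz-type protease inhibitor), Klhdc8a, Schip1, the Rac effector kinase Pak1 and the lubricating proteoglycan Prg4 were also among the 15 lowest, with differences from -2.73 to -2.53. The authors' loci of Fgl2, Timp1, Tnfrsf12a and Prg4 also cover neighbouring genes, and whether the counting used strand is not given in the sources used here.

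**Figure D2:**
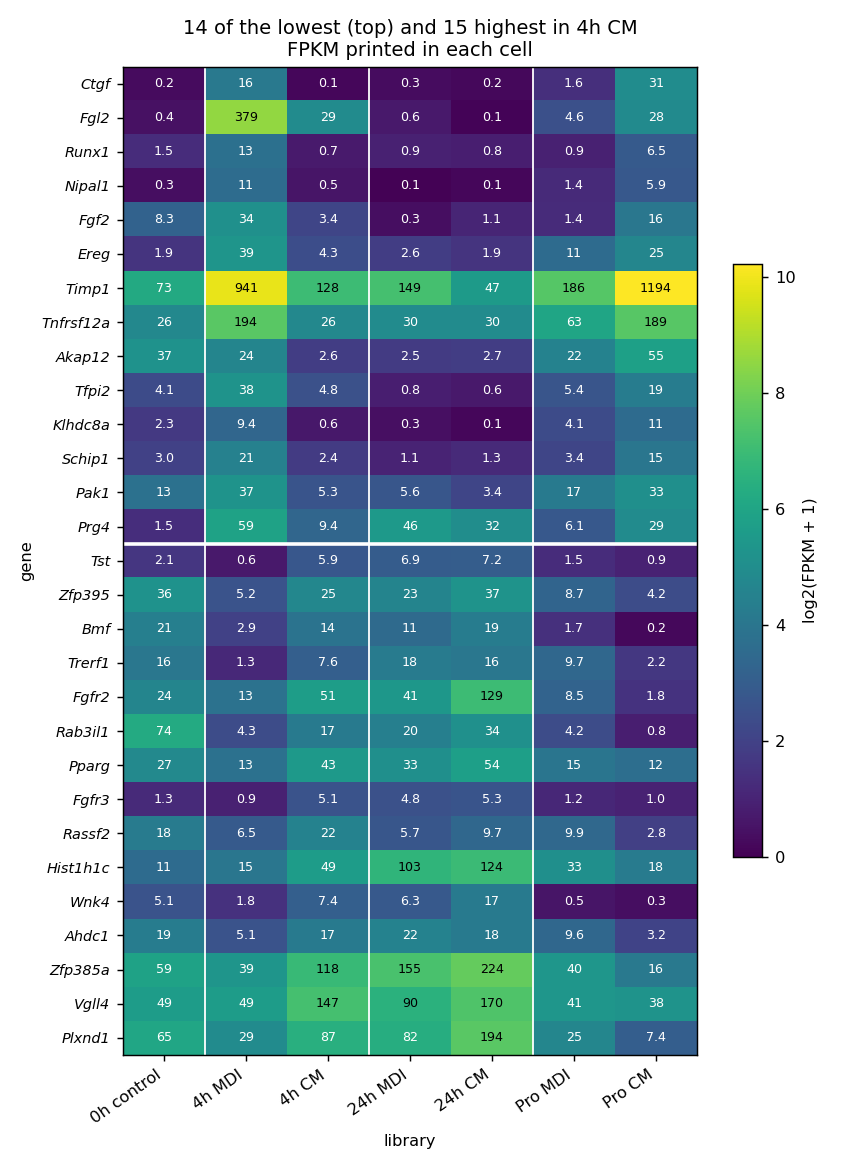
Rows are 14 of the 15 genes with the lowest and the 15 with the highest difference at 4 h, columns are the 7 libraries, colour is log2(FPKM + 1) and the number in each cell is the FPKM. In the upper block Timp1 has the highest values, 941 in 4h MDI and 1194 in Pro CM, and in the lower block Fgfr2 goes from 13.3 in 4h MDI to 51.2 in 4h CM.

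Genes of the actin cytoskeleton and other SRF targets formed the list with the lowest median, among lists chosen with earlier results of these data known. Of 30 genes listed, 26 were members, and 19 of these (73.1%) were called lower and 0 higher, with a median of -1.38 beside the 0.0035 of all members. Vcl, the focal adhesion protein vinculin, had an FPKM of 56.4 at 0h, 275 in fresh MDI and 51.2 in conditioned medium, a difference of -2.40. Tagln, an actin-bundling protein of smooth muscle, was at 6.70, 35.6 and 7.41 in the same libraries. Both genes had a 4h CM level close to that at 0h. The cytoplasmic actins were among the most abundant transcripts, with Actb at an FPKM of 755 at 0h, 3321 in fresh MDI and 874 in conditioned medium. Actg1 was at 685, 3511 and 937 in these libraries, and both actins have many near-identical pseudogenes, so their values are less certain. Fhl2, a LIM-domain cofactor, had an FPKM of 49.9 at 0h, 31.9 in fresh MDI and 6.80 in conditioned medium, so that here fresh MDI was below 0h too. Srf itself had an FPKM of 8.81 at 0h, 22.1 in fresh MDI and 8.39 in conditioned medium, a difference of -1.30. Filip1l was the only list member above 0, at 0.63.

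The promoters of called genes were read from RefSeq (GRCm38.p6) over the 250 bases before the start, for 196 of the 263 lower genes, 62 of the 80 higher genes and 6483 members in all. A CArG box was present in 14 lower genes (7.14%), in 1 higher gene (1.61%), in 1.16% of all members with a promoter and in 1.40% of 27025 promoters in the table. Of the 19 lower actin and SRF genes, 16 had a promoter in the table and 7 of those held a box. These 7 are among the 14 lower genes with a box. Since SRF binds CArG boxes, boxes in a list of SRF targets are no separate result. The stretches below are shown because they are the CArG boxes of lower genes of the actin list, followed by those of lower genes of other lists that encode a phosphatase, a transcription factor and a growth factor. Each is written from 5′ to 3′ on the strand of the gene, and capitals mark the CArG box.
Vcl: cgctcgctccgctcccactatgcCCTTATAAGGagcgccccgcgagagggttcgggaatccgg
Fhl2: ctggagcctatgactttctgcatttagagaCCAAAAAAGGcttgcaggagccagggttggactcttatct
Actg1: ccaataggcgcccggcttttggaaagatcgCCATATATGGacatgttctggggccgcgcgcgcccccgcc
Cnn2: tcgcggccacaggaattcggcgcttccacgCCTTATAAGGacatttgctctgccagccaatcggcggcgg
Lima1: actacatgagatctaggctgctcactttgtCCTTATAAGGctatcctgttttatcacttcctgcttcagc
Srf: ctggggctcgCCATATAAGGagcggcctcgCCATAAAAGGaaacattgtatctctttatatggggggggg
Myl9: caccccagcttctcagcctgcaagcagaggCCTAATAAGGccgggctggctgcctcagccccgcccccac
Dusp5: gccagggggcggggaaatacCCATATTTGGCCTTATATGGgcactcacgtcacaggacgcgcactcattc
Egr2: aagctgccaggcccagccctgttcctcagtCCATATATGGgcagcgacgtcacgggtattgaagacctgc
Pdgfc: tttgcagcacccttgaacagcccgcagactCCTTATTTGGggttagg
These lie at chr14:20929148-20929210 (Vcl, plus strand), chr1:43196818-43196887 (Fhl2, minus), chr11:120348546-120348615 (Actg1, minus), chr10:79988514-79988583 (Cnn2, plus) and chr15:99820157-99820226 (Lima1, minus). The others lie at chr17:46556185-46556254 (Srf, minus), chr2:156775273-156775342 (Myl9, plus), chr19:53529043-53529112 (Dusp5, plus), chr10:67537767-67537836 (Egr2, plus) and chr3:81036369-81036415 (Pdgfc, plus). Srf and Dusp5 each held 2 boxes, and those of Dusp5 adjoin. Cnn2 (a calponin), Lima1 (an actin cross-linker) and Myl9 (a myosin light chain) had FPKM of 219, 70.3 and 32.1 in fresh MDI and 72.8, 23.5 and 14.3 in conditioned medium.

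Of 7 other motifs searched on both strands, the AP-1 pattern TGANTCA also differed in frequency between the sets. It is a loose pattern, since N stands for any base. It was in 26 of 196 lower promoters (13.3%), 1 of 62 higher promoters (1.61%), 3.67% of members and 6.87% of all promoters in the table. The Ets site CCGGAAGT went the other way, in 2 lower promoters (1.02%) and 1 higher (1.61%) against 7.22% of members. For the TEAD site CATTCC the shares were 14.8%, 16.1% and 9.73% in lower, higher and all members, and for the CREB site TGACGTCA 3.57%, 0% and 2.85%. FoxO sites (GTAAACA), E-boxes (CACGTG) and a loose NF-kB motif (GGG and CC, 5 bases apart) had shares of 3.06%, 6.12% and 68.4% in lower promoters and 1.93%, 9.22% and 64.3% in members. Median GC content was 62.4% in lower, 61.8% in higher and 61.2% in all members' promoters. Eml1 was the lower gene that held both a CArG box and an AP-1 site. Motifs were counted separately, so their matches can overlap, and a match is a feature of the letters and not a site shown to be used.

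**Figure D3:**
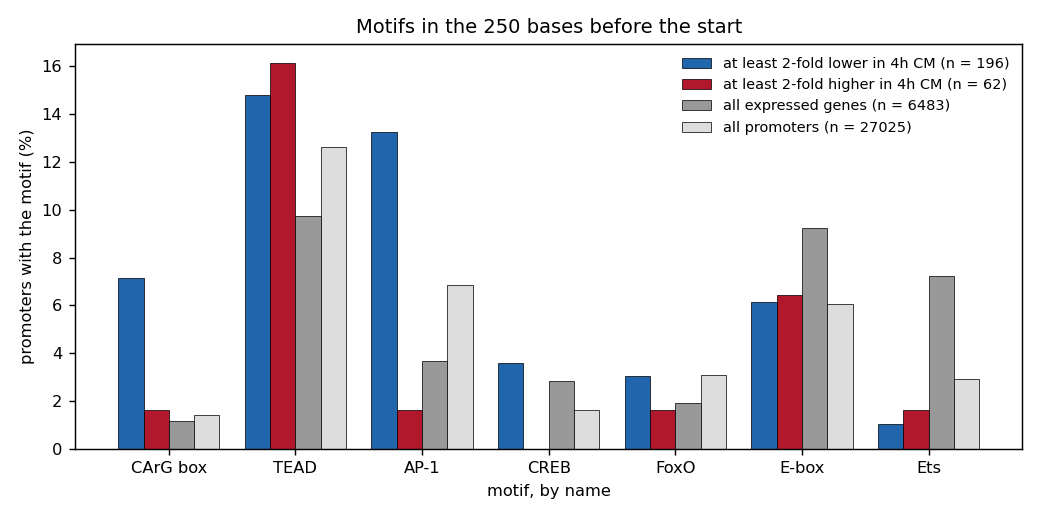
Bars give the percent of promoters, over the 250 bases before the start, that hold a motif on either strand, for genes lower in 4h CM, genes higher in 4h CM, all members with a promoter and all promoters in the table. The blue bars of the CArG box (7.14%) and AP-1 (13.3%) stand above the other 3 bars, and that of Ets (1.02%) below them. NF-kB is left out because its loose motif is far more frequent than the others.

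Immediate early genes and AP-1 subunits, the first genes switched on by serum or growth factors, had 24 members of 28 listed, of which 8 were called lower and 0 higher, with a median of -0.77. Egr1, a zinc-finger factor, had an FPKM of 32.2 at 0h, 23.3 in fresh MDI and 6.12 in conditioned medium, so its level was below 0h in both media. Its relatives Egr3 and Egr2 were at 7.12 and 5.27 in fresh MDI and 1.79 and 1.58 in conditioned medium. Ier3, a stress-induced survival gene, had an FPKM of 8.52 at 0h, 147 in fresh MDI and 50.5 in conditioned medium. Fos was at 2.32, 12.2 and 3.93 in these libraries, a difference of -1.42. Members of the list differed in degree, since Myc was at 136 in fresh MDI and 97.1 in conditioned medium, a difference of -0.48 that was not called. The AP-1 subunits Fosl2 and Jund and the GTPase gene Rhob were above 0, at 0.65, 0.61 and 0.42, and were named after their values were seen.

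Among feedback genes of the ERK pathway, 6 of 17 members were called lower and 0 higher, with a median of -0.72. Dusp5, a nuclear phosphatase of ERK, had an FPKM of 4.98 at 0h, 55.2 in fresh MDI and 14.1 in conditioned medium. Dusp4, another such phosphatase, was at 2.64, 19.2 and 6.86, and the Ets factor Etv5 at 1.96, 5.48 and 1.43. Errfi1, an inhibitor of the EGF receptor, was more abundant, at an FPKM of 15.6 at 0h, 442 in fresh MDI and 203 in conditioned medium. In these 4 genes fresh MDI gave the highest of the 3 values, and in Etv5 conditioned medium was below 0h.

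Matches to the loose AP-1 pattern are shown for Fgl2, Tfpi2 and Schip1, which are among the 15 lowest. They are also shown for the urokinase receptor gene Plaur and for Zyx, the focal adhesion protein zyxin. Capitals mark the match to TGANTCA, and each stretch is written from 5′ to 3′ on the strand of the gene. The match reads TGAGTCA or TGACTCA in Fgl2, Plaur and Zyx, but TGAATCA in Tfpi2 and Schip1.
Fgl2: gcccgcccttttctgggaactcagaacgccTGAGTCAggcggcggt
Tfpi2: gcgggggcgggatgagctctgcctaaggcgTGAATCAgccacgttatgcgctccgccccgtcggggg
Schip1: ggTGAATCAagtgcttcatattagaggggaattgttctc
Plaur: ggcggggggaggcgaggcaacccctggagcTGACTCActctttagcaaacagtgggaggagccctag
Zyx: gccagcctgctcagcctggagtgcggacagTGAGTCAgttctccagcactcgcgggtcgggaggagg
In RefSeq GRCm38.p6 these lie at chr5:21372627-21372672 (Fgl2, plus strand), chr6:3968416-3968482 (Tfpi2, minus), chr3:68064552-68064590 (Schip1, plus), chr7:24462384-24462450 (Plaur, plus) and chr6:42349677-42349743 (Zyx, plus). The sites begin 16, 77, 248, 69 and 121 bases before the start. Plaur had an FPKM of 4.25 at 0h, 43.0 in fresh MDI and 8.999 in conditioned medium, and Zyx, which was named after its values were seen, 406 in fresh MDI and 147 in conditioned medium. Tfpi2 was at 4.06 at 0h, 37.5 in fresh MDI and 4.83 in conditioned medium.

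Growth factor ligands were called in both directions. Of 50 listed, 23 were members, 8 called lower and 1 higher, with a median of -0.09. Tgfb3 had an FPKM of 22.03 at 0h, 34.4 in fresh MDI and 5.31 in conditioned medium, and Tgfb1 was at 16.004, 55.4 and 20.6. Inhba, a subunit of activin A, was at 4.23, 22.7 and 7.87, and the EGF receptor ligand Hbegf at 0.602, 8.33 and 0.970. Ligands of the EGF receptor, the TGF-beta receptors and the PDGF receptors (Pdgfa, -1.26, and Pdgfc, -1.27) were thus among those with less mRNA in conditioned medium. Hgf, hepatocyte growth factor, was the ligand called higher, with an FPKM of 12.1 in fresh MDI and 25.4 in conditioned medium, a difference of 1.01. The angiogenic factor Vegfa had an FPKM of 140 and 201, and Ptn, pleiotrophin, 1407 and 1684, and neither was called. Pdgfa, Hgf, Vegfa and Ptn were named after their values were seen.

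Genes that respond to TGF-beta had 29 members, 9 called lower and 0 higher, with a median of -0.73. Pmepa1, a transmembrane inhibitor of Smad signalling, had an FPKM of 10.7 at 0h, 84.2 in fresh MDI and 14.9 in conditioned medium. Smad7, the inhibitory Smad, was at 2.19, 22.1 and 3.81, and Skil, a corepressor of Smads, at 2.31, 14.7 and 3.44. Id2, which keeps helix-loop-helix factors off DNA, was at 8.33, 229 and 86.8. The inhibitors Pmepa1, Smad7 and Skil and the ligands Tgfb1 and Tgfb3, given above, thus each had less mRNA in conditioned medium. Of the 29 members, 20 did not pass 2-fold. Of 19 members on the list of YAP and TEAD targets, 5 were called lower and 0 higher, with a median of only -0.20. Cyr61, a matricellular protein, was at 10.3 at 0h, 423 in fresh MDI and 77.6 in conditioned medium. Nuak2, a kinase, was at 2.53, 22.5 and 4.77, and Amotl2, a scaffold that binds YAP, at 28.8, 75.05 and 26.8. The other 14 members of the YAP list did not pass 2-fold.

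Proteins that act on or make up the matrix were split. Of 22 members of the plasminogen and metalloproteinase system, 5 were called lower and 1 higher, with a median of -0.05. Timp3, an inhibitor bound to the matrix, had an FPKM of 15.1 at 0h, 86.1 in fresh MDI and 21.6 in conditioned medium, and the urokinase gene Plau was at 3.76, 9.50 and 2.93. The protease and its receptor were both lower, and so were the metalloproteinase inhibitors Timp1 and Timp3. Adamts1, a secreted metalloproteinase, was the one called higher, at 355 at 0h, 227 in fresh MDI and 493 in conditioned medium, a difference of 1.11. Among 42 extracellular matrix genes 5 were called lower and 0 higher, with a median of -0.07. Thbs1, thrombospondin 1, had an FPKM of 71.4 at 0h, 659.4 in fresh MDI and 147 in conditioned medium. Tnc, tenascin C, was at 9.14, 85.0 and 24.2, and the microfibril protein Fbn1 at 40.1, 123 and 47.6. The main fibrillar collagens showed no such gap, since Col1a1 had an FPKM of 1642 in fresh MDI and 1596 in conditioned medium, and Col3a1 of 1105 and 1447. Among 21 integrins and adhesion receptors, 3 were called lower and 0 higher, with a median of -0.56. Itgav, an integrin subunit that takes part in activating latent TGF-beta, was at an FPKM of 33.9 at 0h, 105 in fresh MDI and 29.3 in conditioned medium, and the hyaluronan receptor Cd44 at 16.2, 118 and 37.3.

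Small GTPases and their regulators, which shape the actin network, had 24 members, 4 called lower and 1 higher. Rhoj, a Cdc42-like GTPase, had an FPKM of 33.1 at 0h, 316 in fresh MDI and 62.0 in conditioned medium, a difference of -2.33. Tiam1, an exchange factor of Rac, was at 1.93, 7.52 and 1.13, and the GTPase-activating protein Arhgap29 at 8.91, 36.8 and 13.6. Limk2, a kinase that inhibits the actin-severing protein cofilin, was the one called higher, with 9.75 in fresh MDI and 21.8 in conditioned medium. Outside every list, other lower genes also encode cytoskeletal proteins. These were picked after their values were seen and include Palld (32.1 in fresh MDI and 7.15 in conditioned medium), Csrp1 (135 and 26.8), Dstn (313 and 148) and Wdr1 (120.4 and 53.7).

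Chemokines and cytokines were mostly lower in conditioned medium or within 2-fold. Of 24 members of the NF-kB and cytokine list, 7 were called lower and 1 higher, with a median of -0.25. Ccl2, a chemokine that attracts monocytes, had an FPKM of 15.6 at 0h, 20.3 in fresh MDI and 3.28 in conditioned medium. Cxcl1 was at 6.05, 36.5 and 7.58, and Cxcl5 at 28.9, 24.8 and 5.001, both ligands for neutrophils. In Ccl2 and Cxcl5 fresh MDI was thus near 0h and conditioned medium below it. Il11, a cytokine of the IL-6 family, had an FPKM of 0.5 at 0h, 21.2 in fresh MDI and 3.99 in conditioned medium. Lcn2, an iron-siderophore carrier of the acute phase, went the other way, at 0.0408 at 0h, 17.9 in fresh MDI and 44.8 in conditioned medium. On the list of IL-6 and STAT3 genes 5 of 19 members were called lower and 1, again Lcn2, higher, while the median was 0.03. Socs3, the feedback inhibitor of that pathway, was at 20.7, 86.2 and 41.1.

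Targets of the glucocorticoid receptor and of cAMP, through which dexamethasone and IBMX act, differed in both directions. Of 26 members among glucocorticoid receptor targets, 3 were called lower and 3 higher, with a median of -0.07. Fkbp5, a chaperone and classic target, had an FPKM of 44.2 at 0h, 390 in fresh MDI and 477 in conditioned medium, a difference of 0.29. Sgk1, a kinase induced by both glucocorticoids and serum, was at 44.6, 90.0 and 29.0. Il1rl1, the IL-33 receptor, was at 11.2, 467 and 144, and Errfi1, given above, was the other lower gene. Pdk4, a kinase that blocks pyruvate dehydrogenase, was one of the higher genes, at 26.3, 9.08 and 22.5, and Lcn2 and Lpin1 were the others. Of 20 members among cAMP and CREB targets, 4 were called lower and 0 higher, with a median of -0.30. Nr4a3, an orphan nuclear receptor, was at 0.0430 at 0h, 14.9 in fresh MDI and 3.16 in conditioned medium, and Gprc5a, an orphan receptor, 1.26, 68.9 and 13.5. Both media held Nr4a3 and Gprc5a far above their 0h level, and also Nr4a2, at 1.08, 18.7 and 7.21. Creb3l1, the other gene called lower, was at 79.3, 89.3 and 43.4, so conditioned medium was below 0h.

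Some lists of metabolism and of nutrient supply held a few strong differences and a median near 0. Of 36 members among glycolysis and hypoxia genes, 4 were called lower and 1 higher, with a median of 0.01. Adm, the vasodilator peptide adrenomedullin, had an FPKM of 5.47 at 0h, 25.5 in fresh MDI and 5.54 in conditioned medium. Hk2, a hexokinase, was at 4.49, 110 and 48.9, and Hif1a, the oxygen-sensitive factor, at 59.6, 301 and 136. Slc2a1, the glucose transporter GLUT1, was at 48.8, 195 and 93.6, while the phosphate transporter Slc20a1 was at 7.86, 82.2 and 18.6. Hk2 and Slc2a1, genes of glucose entry, thus had less mRNA in conditioned medium, while most of the glycolysis and hypoxia members were within 2-fold. Eno2 was the member of that list called higher, at 11.9 at 0h, 3.19 in fresh MDI and 7.84 in conditioned medium. Pfkm, with a difference of 0.92, missed 2-fold. Cpt1a, which brings fatty acids into mitochondria, was at 55.5, 65.4 and 21.5. Retinoid genes had 8 members, 3 called lower and 1 higher. Cyp26b1, which breaks down retinoic acid, was at 3.77, 70.2 and 11.96, and Rdh10 and Dhrs3, which make and remove retinal, were lower by differences of -1.37 and -1.20. Rara, a receptor for retinoic acid, was higher, at 27.9, 37.9 and 77.6.

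The 80 higher genes differed by less than the lower ones, and 64 of them were in none of the 44 lists. The lists hold 866 of all 8015 members. Zfp395, a zinc-finger protein, and Tst, the mitochondrial sulfurtransferase rhodanese, each differed by 2.10. Zfp395 had an FPKM of 35.96 at 0h, 5.17 in fresh MDI and 25.4 in conditioned medium, and Tst of 2.08, 0.611 and 5.90. Bmf, a BH3-only protein that promotes apoptosis, was at 20.5, 2.89 and 13.9. Trerf1, a zinc-finger transcriptional regulator, was at 15.6, 1.27 and 7.62, and Rab3il1, an exchange factor for a Rab GTPase, at 74.3, 4.25 and 17.3. In Zfp395, Bmf, Trerf1 and Rab3il1 conditioned medium lay between fresh MDI and 0h. Fgfr2, a fibroblast growth factor receptor, was at 24.1, 13.3 and 51.2 (chr7:130162451-130266808 in the authors' tables), above 0h in conditioned medium and below it in fresh MDI. Its relative Fgfr3 was at 1.35, 0.932 and 5.07. Plxnd1, a semaphorin receptor, had an FPKM of 64.6, 29.1 and 86.6, and Vgll4, a cofactor that competes with YAP for TEAD factors, 49.4, 48.8 and 147. Vgll4 had the same level at 0h and in fresh MDI. Hist1h1c, a linker histone, was at 10.8, 15.2 and 49.2, with less certainty because histone genes are near copies of each other. Sesn1, a sestrin induced by FoxO and p53, was at 23.2, 8.05 and 18.2.

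Transcription factors that drive fat cell formation had 26 members, 2 called lower and 2 higher, with a median of 0.22. Pparg, the nuclear receptor at the centre of the program, was at an FPKM of 27.2 at 0h, 13.1 in fresh MDI and 43.5 in conditioned medium, a difference of 1.66 (chr6:115361221-115490401 in the authors' tables). Nfia, a factor of the NFI family, was at 5.63, 1.37 and 5.70, so that conditioned medium matched 0h. Cebpa, a partner of Pparg, was at 8.82, 3.71 and 7.76, and its difference of 0.90 missed 2-fold. The early factor Cebpb was at 124, 695 and 784, and Cebpd at 6.23, 30.8 and 45.8, with differences of 0.17 and 0.56. The lower factors were Egr2, given above, and the Notch target Hes1, at 8.73, 55.7 and 25.6. Fat cell genes had 20 members of 40 listed, 0 called lower and 2 higher, and the highest median of all lists, 0.33. Of the 20, 15 were above 0 and 5 below. Below 0 were Acly, at 41.4 at 0h, 244 in fresh MDI and 142 in conditioned medium, and Me1, at 14.9, 15.7 and 9.14. Pnpla2, the first lipase of triglyceride breakdown, had an FPKM of 7.24 at 0h, 5.32 in fresh MDI and 13.3 in conditioned medium. Lpin1, a phosphatase that makes diacylglycerol, was at 6.03, 4.09 and 9.97. Fabp4, a fatty acid carrier of mature fat cells, was at 27.9, 33.6 and 35.3, and Lpl, lipoprotein lipase, at 97.5, 104 and 138, and neither passed 2-fold. Adipoq was under an FPKM of 0.1 in all 3 libraries. Dlk1, which marks preadipocytes, was at 669, 985 and 833.

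In some lists nearly all members differed in 1 direction by a small amount. Of 35 ribosome biogenesis genes, 33 were below 0, with a median of -0.33 and 0 called. Their values ran from -0.58 for Dkc1, a pseudouridine synthase, to 0.25 for Tsr1, a factor of small subunit maturation. Of 47 cytosolic ribosomal proteins, 46 were above 0, with a median of 0.14 and 0 called. Genes that make ribosomes and genes of the ribosome itself thus differed in opposite directions, each by far less than 2-fold. Of 24 chaperones of the endoplasmic reticulum, 22 were below 0, with a median of -0.27 and 0 called. Other lists were less uniform in direction. Of 12 clock genes 9 were below 0 (median -0.32), and of 36 respiratory chain genes 23 were above 0 (median 0.08), with 0 called in each. Keratins and intermediate filaments had a larger median of -0.59 over 8 members, 6 of them below 0, and 0 called. Across the 44 lists, 113 of the 263 lower genes and 16 of the 80 higher genes were in at least 1 list, beside 866 of all 8015 members. The lists were chosen with earlier results of these data known, so these shares describe the choice of lists and are no result. Of the list medians, 6 were below -0.5 and 0 above 0.5.

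**Figure D4:**
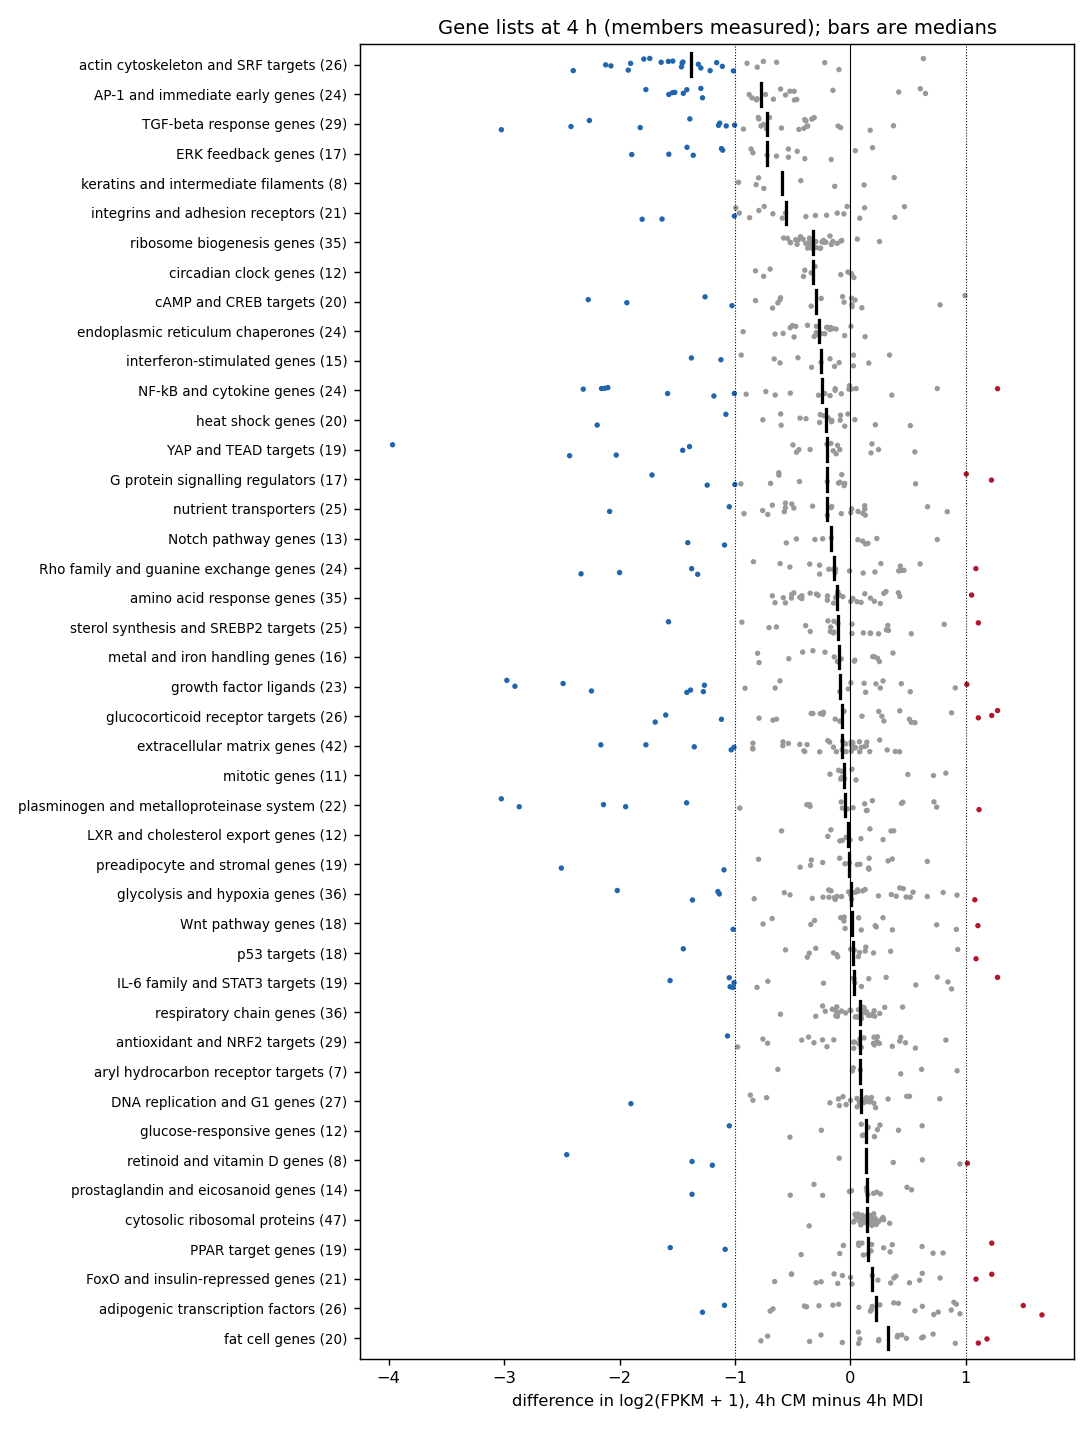
Each point is a member of a list, placed by its difference in log2(FPKM + 1) between 4h CM and 4h MDI. Black bars are list medians, blue points are called lower and red points higher, and dotted lines mark 2-fold. Lists are in order of their median, from the actin and SRF list at -1.38 to fat cell genes at 0.33.

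The same genes were then looked up in the pairs at 24 h and in preconfluent cells, which share no library with the pair at 4 h. At 24 h, 1.02% of all members were at least 2-fold lower in conditioned medium and 1.5% higher. Of the 263 genes lower at 4 h, 19 (7.22%) were lower again at 24 h and 10 (3.80%) were higher, with a median of -0.14. Only 176 of the 263 (66.9%) reached an FPKM of 5 in either 24h library, against 93.7% of all members. The scale understates the change of the others. Those lower in both pairs included Timp1, with an FPKM of 149 in the MDI and 47.1 in the CM library at 24 h, Id2, with 51.1 and 5.61, and Wisp2, with 13.2 and 2.53. Also among these 19 were Smad6, Smad7, Cxcl1 and Cxcl5. Thbs1 was on the other side at 24 h, with 4.29 in the MDI and 12.9 in the CM library at 24 h, as were Tnc, with 3.28 and 11.5, and Itgav, with 8.22 and 18.2. Of the 80 genes higher at 4 h, 13 (16.3%) were higher and 0 lower at 24 h, with a median of 0.31. Fgfr2 was among them, with 41.2 in the MDI and 129 in the CM library at 24 h, and so were Plxnd1, with 82.1 and 194, Adamts1, with 235 and 521, and Lpin1, with 3.11 and 11.1. Fat cell genes had a median of 0.70 at 24 h, and 7 of the 20 were called higher, among them Lpl, with 45.7 and 339.

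In preconfluent cells the genes called at 4 h lay mostly on the other side. There 2.11% of all members were at least 2-fold higher in conditioned medium and 1.01% lower. Of the 263 genes lower at 4 h, 108 (41.1%) were called higher in Pro CM and 1 lower, and 245 (93.2%) were above 0, with a median of 0.90. Ctgf had an FPKM of 1.61 in Pro MDI and 30.6 in Pro CM, Timp1 of 186 and 1194, and Pmepa1 of 6.23 and 117. In the libraries labelled as preconfluent the higher value of these 3 genes was thus in Pro CM. Vcam1, an adhesion molecule, was the gene called lower in both pairs, with 16.4 in Pro MDI and 7.54 in Pro CM. Not every group followed, since the chemokines Cxcl1 and Ccl2 had FPKM of 60.1 and 16.4 in Pro MDI and 46.2 and 18.0 in Pro CM. Of the 80 genes higher at 4 h, 21 (26.3%) were called lower in Pro CM and 0 higher, and 75 (93.8%) were below 0, with a median of -0.59. Only 53 of the 80 (66.25%) reached an FPKM of 5 in either Pro library, against 93.7% of all members. Fgfr2 had 8.51 in Pro MDI and 1.79 in Pro CM, and Pdk4 had 21.4 and 3.38. Pparg differed little there, with 14.52 and 11.8. The actin and SRF list had a median of 0.50 in this pair, with 5 of 26 called higher and 0 lower. With 1 library per condition the difference between pairs was not tested, and confluence, time, library and an exchange of labels within a pair cannot be told apart. An exchange of labels in 1 pair would turn the direction of its differences.

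**Figure D5:**
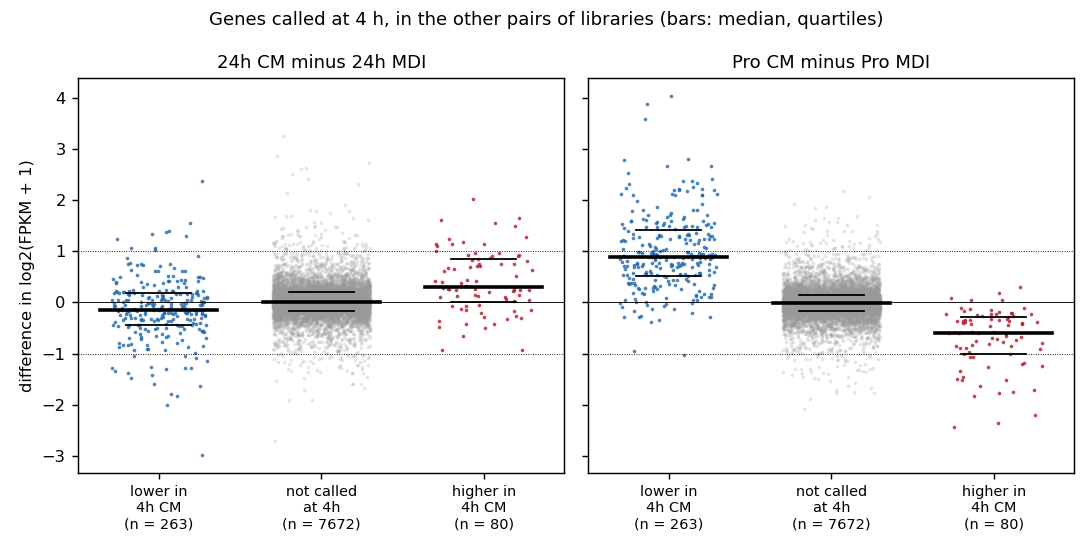
Points are genes, grouped by their call at 4 h, and the vertical axis is the difference in log2(FPKM + 1) between CM and MDI in the pair named above each panel. Thick bars are medians and thin bars quartiles. In the preconfluent pair genes lower at 4 h have a median of 0.90 and genes higher at 4 h one of -0.59, while at 24 h the medians are -0.14 and 0.31.

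The authors' deposited table gives Cuffdiff p-values for this pair of libraries, which have no replicates, so these values compare libraries and not conditions. In it 79 members (0.986%) had p under 0.05 and were lower in 4h CM, and 9 (0.112%) were higher. The lowest p in the authors' deposited table among genes named here was 0.00045, for Fgl2, with a q-value of 0.135, and no member had a lower q-value. Ctgf, with the largest difference, had a p of 0.07255 in the authors' deposited table.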

How the data were processed

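RNA-seq was made from total RNA, extracted with Trizol, of 7 conditions with 1 library each. The submitters' processing notes name TopHat2 2.0.13 and Cuffdiff 2.2.0; no genome build, annotation or setting is named there. The authors deposited a table per pair of libraries, with FPKM of each gene and a Cuffdiff p-value and q-value, per the file headers. Libraries were identified by the sample names inside the tables. Promoter starts of RefSeq GRCm38.p6 lay within 1000 bases of the authors' locus for 6483 of 6532 members matched by name (99.2%).

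From the deposited FPKM, differences of log2(FPKM + 1) were computed with Python 3.11.15, numpy 2.4.6 and pandas 2.3.3 over protein-coding genes that reached an FPKM of 5 in either library, and a difference of 1 was called. The authors' p-values and q-values are quoted only as theirs. The calling step was checked on simulated data. Genes named are the 15 highest and 15 lowest, up to 6 per list with the largest difference, up to 10 of the authors' list at p under 0.05 and 23 fixed genes; any other gene named was chosen after its values were seen, as a marker, a holder of a promoter motif, a gene called in 2 pairs or the end of a list's range. Members and the 44 gene lists were chosen with earlier results of these data known. Alternatives were a pseudocount of 0.1 or 5, an FPKM limit of 1 or 10 or none, TPM, a median ratio of 1, all gene types, folds of 1.5 and 3, and genes with Cuffdiff status OK. No counting intervals are given, because FPKM do not carry the depth. Some genes that the rule names are not reported here.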

Additional observations from a re-analysis of the deposited data

Results flagged for a closer look

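What marked these results is a difference in the effect of conditioned medium between the pair of libraries at 4 h and the pair of preconfluent cells, with values on opposite sides of 0. Each condition has 1 library, so this difference was not tested, and confluence, time, library and an exchange of labels within a pair cannot be told apart.

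Of the gene lists, actin cytoskeleton and SRF targets had a median of -1.38 at 4 h and 0.50 in the preconfluent pair, and TGF-beta response genes of -0.73 and 0.70. ERK feedback genes had medians of -0.72 and 0.62, and integrins and adhesion receptors of -0.56 and 0.61.

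Among the 15 genes lowest at 4 h, 14 were at least 2-fold higher in Pro CM than in Pro MDI, beside 2.11% of all members. For secreted proteins the preconfluent difference was 3.60 for Ctgf. Fgf2 had 2.80, Timp1 2.68, Fgl2 2.38, Prg4 2.10, Tfpi2 1.62 and Ereg 1.11. Among the others, Runx1 had 1.98, Schip1 1.87, Tnfrsf12a 1.58, Nipal1 1.56, Akap12 1.30 and Klhdc8a 1.24.

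Of the 15 genes highest at 4 h, 8 were at least 2-fold lower in Pro CM, beside 1.01% of all members. The receptors Fgfr2 and Plxnd1 had preconfluent differences of -1.77 and -1.63. The regulators of transcription Trerf1, Ahdc1 and Zfp385a had -1.75, -1.34 and -1.25. Rab3il1, Rassf2 and Bmf had -1.51, -1.50 and -1.21. Rab3il1 and Bmf were weak in this pair, with FPKM of 4.19 and 1.68 in Pro MDI and 0.820 and 0.155 in Pro CM.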

How the results depend on the processing

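Counts of called genes rested most on the fold and on the pseudocount. With a pseudocount of 5 the 80 higher and 263 lower genes became 26 and 173, at 1.5-fold they were 415 and 627, and at 3-fold 11 and 88. With an FPKM of at least 5 asked of both libraries, an alternative chosen after seeing the data, 51 were higher and 194 lower. Under the other 8 alternatives higher genes ranged from 58 to 118 and lower ones from 226 to 293, each within 1.5 times of the counts reported. Of the 6 list medians below -0.5, 3 did not stay there: without a filter on low values they were -0.45 for ERK feedback genes, -0.19 for integrins and adhesion receptors and 0 for keratins. With an FPKM limit of 1 those of integrins and keratins were -0.47 and -0.43, and rescaled to TPM that of integrins was -0.49. Rescaling to TPM shifted differences by 0.068 and a median ratio of 1 by -0.0036. Of 134 called genes under the rule for naming, 43 were under 2-fold in at least 1 alternative, 40 of them with a pseudocount of 5, and 0 reversed. No paired analysis was possible because each condition has 1 library. Depth, which FPKM do not carry, limits the values of weak genes by an unknown amount.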

Other observations

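Genes of other types lay outside the comparison and are given as values only, chosen after they were seen. Of 338 such genes at an FPKM of 5 or more in either library at 4 h, 50 differed at least 2-fold, and 27 of these were listed at 0 in 1 of the libraries. The microRNA gene Mir762 had an FPKM of 3459 in fresh MDI and 0 in conditioned medium at 4 h, but 0 and 1692 in the corresponding libraries at 24 h. Such short genes can be at 0 through a failed estimate, so no fold is given. Among 33 snoRNA genes 9 were at least 2-fold lower and 4 higher, beside the 50 called either way among all 338 genes of other types. Of the lower ones, Snord33, Snord15b, Snord7 and Snora2b were listed at 0 in conditioned medium at 4 h, so the count is no result about snoRNA.

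Some entries without a gene type held values in both libraries. Ackr3, a scavenging receptor for chemokines, had an FPKM of 12.7 at 0h, 69.3 in fresh MDI and 26.5 in conditioned medium at 4 h. Ciart, a repressor of the circadian clock, had 0.889, 12.1 and 3.95 in these libraries.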
